A study of Mus musculus with 12 samples.

Results

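Ly6a, Ly6d, Psca, Prom1, Cd44 and Kit are surface proteins by which stem-like and proximal progenitor cells of the mouse prostate have been sorted or traced. They were taken as 6 named rows, by symbol and not by value, out of 23284 genes in the expression table, and all 6 were present. Whole prostate of 4-month-old mice had been profiled by poly-A selected RNA sequencing in 6 wild-type (+/+) libraries and in 6 libraries of mice carrying 2 null alleles (-/-), here named null. All mice were of a hybrid background of the strains 129/SvImJ and C57Bl/6J, and the labels name no treatment, transgene or Cre line and do not say how animals map to libraries. P-values therefore measure only how these libraries spread, and part of that may be technical.

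The prostatic ducts join the urethra at their proximal end, and cells near that junction survive androgen withdrawal and regrow the gland when androgen returns. Ly6a (Sca-1), Ly6d and Psca belong to the Ly6/uPAR family, small proteins held to the outer membrane by a glycolipid anchor. Prom1 (CD133) is a membrane protein of microvilli and other protrusions, Cd44 is the main receptor for the matrix polymer hyaluronan, and Kit is the receptor tyrosine kinase for stem cell factor, the product of Kitl. None of these genes is restricted to progenitors: Ly6a is also made by endothelium and T cells, Cd44 by leukocytes, and Kit by mast cells. In whole tissue, fewer cells of a type and less RNA per cell cannot be told apart.

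Values were on a log2 scale, on which 1 unit is a 2-fold difference at high expression and a larger one near the floor. The floor was set by 1123 olfactory receptor genes, whose 95th percentile was 3.51, and each member lay above it in every library. The files give no counts, so the depth of the libraries is unknown. Between genes, levels were not compared, because the scale carries no correction for transcript length. Pbsn, which encodes the prostate secretion probasin, was abundant in each library, at 17.90 to 18.06 in wild-type and 15.63 to 16.14 in null libraries.

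Libraries of a genotype were not equally alike. Over 3633 well-expressed genes (mean 10 or more) the median difference between 2 wild-type libraries was 0.0563 (0.0388 to 0.0702) within the sets 1 to 3 and 4 to 6 and 0.109 (0.103 to 0.129) across them. Between null libraries it was 0.0659 (0.0535 to 0.112) within the sets 1, 2 and 5 and 3, 4 and 6 and 0.144 (0.122 to 0.169) across them. No label gives these sets. They were taken from earlier work on these data, so the closer likeness within them is no separate test of the grouping. Differences were tested with limma over 12 libraries and again over the 4 set means, because a set may hold repeats of the same source.

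Of the 6 genes, Psca, Prom1 and Kit rose, Cd44 and Ly6d fell, and Ly6a was not called, so the markers did not move as a block. Among 15096 tested genes 53.1% were called at an adjusted p under 0.05, 28.0% higher and 25.1% lower, so 5 calls among 6 genes, 3 higher and 2 lower, have to be read against a high background. Over set means Psca and Prom1 passed as higher and Cd44 as lower, where 14.5% of all genes passed, 7.58% higher and 6.96% lower. Psca and Prom1 were higher in each null library than in any wild-type library, and in the other 4 genes the genotypes overlapped. Such separation was found in 32.6% of all tested genes, 17.4% higher and 15.2% lower. The median difference of the 6 genes was 0.41, beside 0.012 for all tested genes.

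**Figure D1:**
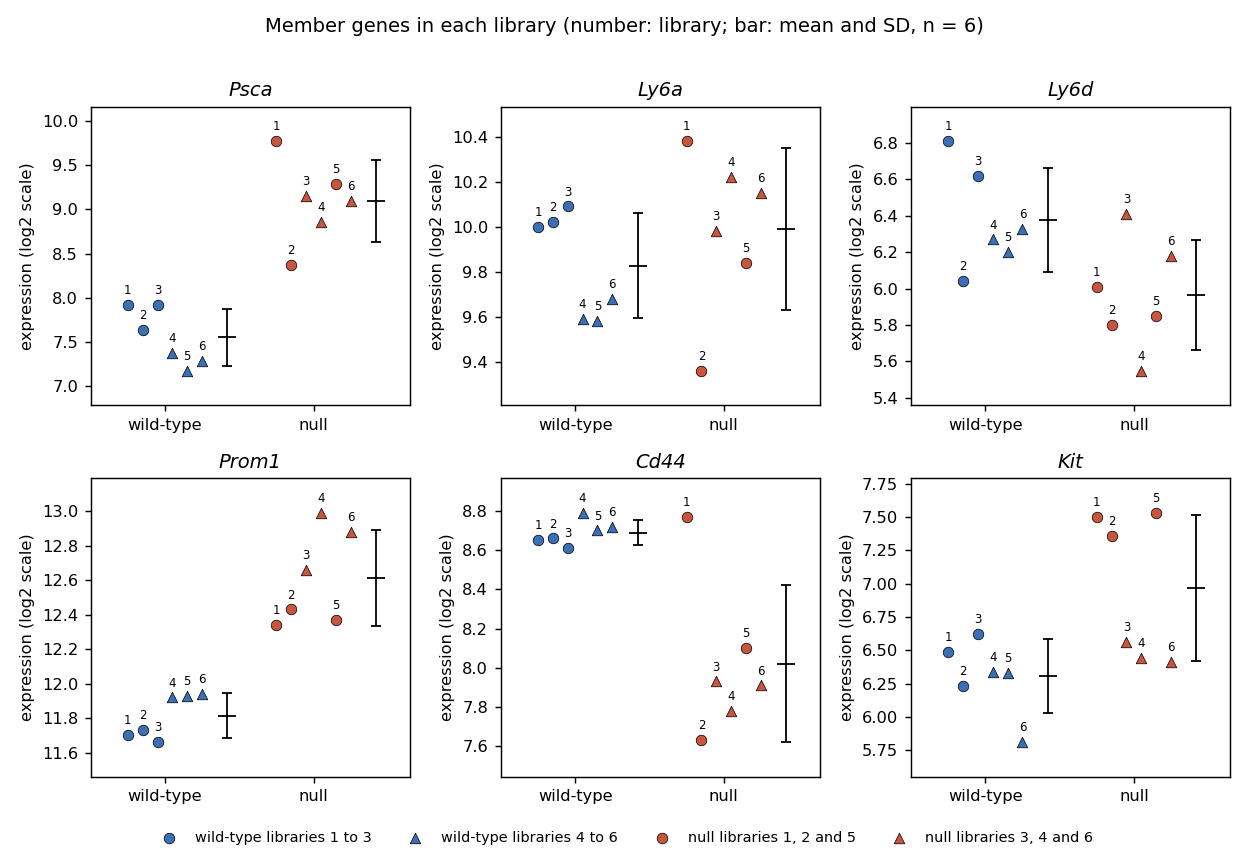
Expression of each member gene (log2 scale, vertical axis) in 6 wild-type and 6 null libraries, with circles and triangles for the library sets, library numbers above the points and bars for mean and SD (n = 6). Psca and Prom1 separate the genotypes, Cd44 does so except for null library 1 at 8.77, and Kit is raised in null libraries 1, 2 and 5, at 7.36 to 7.53.

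Psca, prostate stem cell antigen, showed the largest difference of the 6 genes. In wild-type libraries 1 to 6 it stood at 7.92, 7.64, 7.92, 7.38, 7.18 and 7.29, and in null libraries 1 to 6 at 9.77, 8.37, 9.15, 8.86, 9.29 and 9.10. The lowest null library, 2, lay above the highest wild-type library. Psca rose from 7.56 ± 0.324 (SD, n = 6) to 9.09 ± 0.464 (SD, n = 6), by 1.54 (SE 0.208; limma adjusted p = 4.30e-05 over 12 libraries and 0.0102 over set means). That is 2.9-fold, and 96.9% of tested genes differed by less. Leaving out any 1 library kept the rise between 1.40 and 1.68. Within wild-type libraries Psca was higher in 1 to 3 than in 4 to 6 without overlap.

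Ly6a, the antigen used to enrich prostate cells that form tubules on grafting, did not pass. Its lowest, median and highest wild-type values were 9.58, 9.84 and 10.09, and libraries 1 to 3 all lay above libraries 4 to 6. Null libraries 1 to 6 stood at 10.38, 9.36, 9.98, 10.22, 9.84 and 10.15, so that they included both the highest and the lowest value of all 12. The difference was 0.16 (SE 0.158; 95% interval -0.18 to 0.50; limma adjusted p = 0.420, and 0.563 over set means). This interval holds a rise of up to 0.50 and a fall of 0.18. Dropping null library 2 gave 0.29 (limma adjusted p = 0.0596). Dropping the wild-type set 4 to 6 turned the sign, to -0.048 (limma adjusted p = 0.854). Ly6a has close relatives in sequence, among them its chromosomal neighbours Ly6i and Ly6c1, so its value is uncertain to the extent that reads were shared among them, which no source used here describes.

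Ly6d, which marks a castration-resistant luminal population, was lower, but by a margin that few alternatives kept. Wild-type libraries 1 to 6 stood at 6.81, 6.04, 6.62, 6.27, 6.20 and 6.33, and null libraries 1 to 6 at 6.01, 5.80, 6.41, 5.55, 5.85 and 6.18. Null libraries 3 and 6 lay inside the wild-type range. Ly6d fell by 0.41 (SE 0.160; limma adjusted p = 0.0420), with a 95% interval from -0.75 to -0.07. Over set means it missed the threshold (limma adjusted p = 0.196). The call was lost without wild-type library 1, 3, 4 or 6 and without null library 1, 2, 4 or 5 (limma adjusted p up to 0.0987).

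Prom1 was raised in all 6 null libraries. Wild-type libraries 1 to 6 stood at 11.70, 11.73, 11.66, 11.92, 11.93 and 11.94, and null libraries 1 to 6 at 12.34, 12.43, 12.66, 12.99, 12.37 and 12.88. No null library reached down to the highest wild-type value, 11.94. Prom1 rose from 11.81 ± 0.131 (SD, n = 6) to 12.61 ± 0.279 (SD, n = 6), by 0.80 (SE 0.112; limma adjusted p = 4.30e-05, and 0.0448 over set means), or 1.74-fold. Null libraries 3, 4 and 6 were higher than null libraries 1, 2 and 5 without overlap. The rise was 1.03 with the first of these sets alone and 0.57 with the second (limma adjusted p = 1.35e-06 and 5.56e-05). Libraries of a single set may be repeats of the same source, so these p-values may be too small. The paralog of Prom1, Prom2, also a protein of membrane protrusions, went the other way and fell by 0.89 (SE 0.0954; limma adjusted p = 2.98e-06, and 0.0201 over set means). Prom2 ranged from 11.16 to 11.62 in wild-type and from 10.28 to 10.71 in null libraries.

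Cd44 was lower in 5 of 6 null libraries. Wild-type libraries 1 to 6 were close together, at 8.65, 8.66, 8.61, 8.79, 8.70 and 8.72. Null libraries 2 to 6 stood at 7.63, 7.93, 7.78, 8.10 and 7.91, all under the lowest wild-type library, whereas null library 1 stood at 8.77, within the wild-type range. Cd44 fell by 0.67 (SE 0.147; limma adjusted p = 0.00168, and 0.0313 over set means), from 8.69 ± 0.0612 (SD, n = 6) to 8.02 ± 0.399 (SD, n = 6). With each library left out, the difference ran from -0.82 to -0.59 (limma adjusted p = 1.21e-06 to 0.00457). The largest fall was without null library 1, as it had to be, since that null library alone lay within the wild-type range. The call was lost with an exact rank-sum test (adjusted p = 0.0761) and with a random block per library set (limma adjusted p = 0.0887). Cd44 is made as several splice isoforms, which 1 value per gene cannot separate.

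Kit was raised in one set of null libraries. Wild-type libraries 1 to 6 stood at 6.49, 6.23, 6.62, 6.34, 6.33 and 5.81. Null libraries 1, 2 and 5 stood at 7.50, 7.36 and 7.53, above each wild-type library, and null libraries 3, 4 and 6 at 6.56, 6.44 and 6.41, inside the wild-type range. Kit rose by 0.67 over 12 libraries (SE 0.224; limma adjusted p = 0.0222). It missed the threshold over set means (limma adjusted p = 0.251), and with null libraries 1, 2 and 5 left out the difference was 0.17 (limma adjusted p = 0.389). With null libraries 3, 4 and 6 left out instead, it was 1.16 (limma adjusted p = 8.65e-05). Each of these fits keeps a single null set, whose libraries may be repeats of the same source, so its p-value may be too small. The call was also lost without wild-type library 6 (limma adjusted p = 0.0513) and without null library 5 (limma adjusted p = 0.0506).

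**Figure D2:**
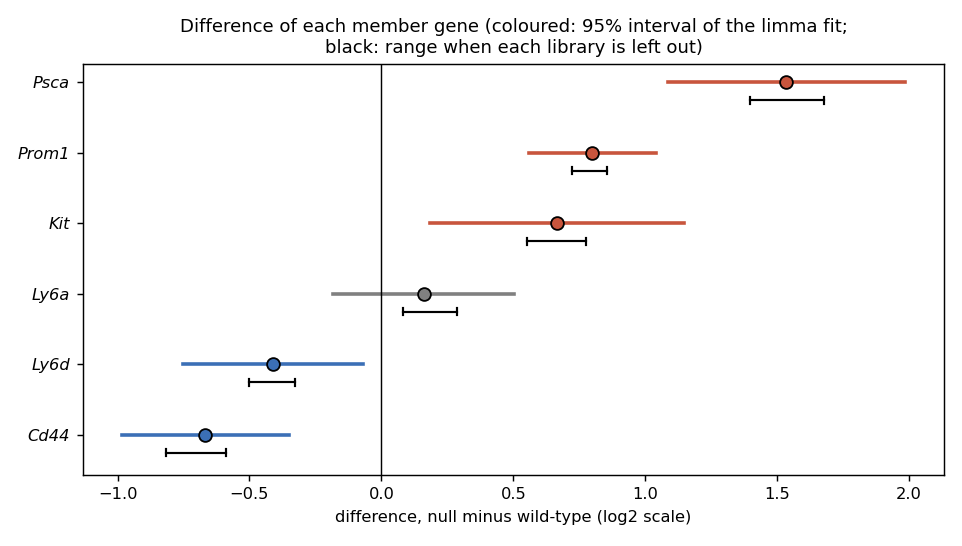
Difference of each member gene, null minus wild-type (log2 scale, horizontal axis), with the 95% interval of the limma fit in colour (red for higher, blue for lower, grey for not called) and, in black, the range of the difference when each library is left out. Psca at 1.54 and Prom1 at 0.80 lie farthest above 0, and the interval of Ly6a, -0.18 to 0.50, spans it.

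The exact two-sided permutation test of the difference in means, over the 924 ways to divide 12 libraries, gave p = 0.00216 for Psca and for Prom1, which is the smallest it can give for 6 against 6. The same exact permutation test gave p = 0.0130 for Cd44, 0.0281 for Kit, 0.0368 for Ly6d and 0.377 for Ly6a. These 6 values were not corrected for the number of genes.

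Deviations from the genotype means showed which of the genes varied together between libraries. They are given as descriptions over 12 libraries, in which libraries of a set share part of their variation. Psca varied with Ly6a (r = 0.813) and with Cd44 (r = 0.685), and null library 1 was the highest and null library 2 the lowest null library in all of these genes. Prom1 and Kit varied in opposite directions (r = -0.893), following the null library sets. Among 12125 other genes with a mean of at least 5, Ly6a was most like H2-K1 (r = 0.966), a class I histocompatibility gene, followed by Dclk1 (r = 0.950) and Tlr7 (r = 0.949). Psca was most like Siglec1 (r = 0.956), a macrophage receptor, Rin2 (r = 0.954) and Tuba1a (r = 0.953), of which Siglec1 fell by 0.91 (limma adjusted p = 0.000224) while Psca rose. Prom1 was most like Epb4.1 (r = 0.989), Tgm4 (r = 0.989), which encodes a prostate-secreted transglutaminase, and Hgsnat (r = 0.984). Cd44 was most like Capn2 (r = 0.955) and Pbsn (r = 0.954), and Kit was most like Pot1b (r = 0.961), Kcnc4 (r = 0.946) and Stac2 (r = 0.934). For Ly6d they were Sfrp2 (r = 0.910), Pebp1 (r = 0.825) and Pip4k2b (r = 0.823).

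The start regions of Prom1 and Kit, which rose, and of Cd44, which fell, are shown because these are the called members with a promoter in the RefSeq table used (GRCm38.p6). Each run holds 250 bases up to the annotated start, 5′ to 3′ on the gene's strand. Capitals mark matches on either strand to the TATA box (TATAAA), the CCAAT box, the GC box (GGGCGG) and the motif AGAACA. Of 32851 windows of the same length, 12.4%, 33.8%, 32.7% and 16.1% held them, in that order.
Prom1 (chr5:44101737-44101986, - strand): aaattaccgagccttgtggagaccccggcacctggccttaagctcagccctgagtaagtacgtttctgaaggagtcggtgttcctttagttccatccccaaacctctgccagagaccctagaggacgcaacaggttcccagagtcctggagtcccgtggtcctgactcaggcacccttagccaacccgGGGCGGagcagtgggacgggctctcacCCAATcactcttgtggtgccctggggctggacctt
Kit (chr5:75574737-75574986, + strand): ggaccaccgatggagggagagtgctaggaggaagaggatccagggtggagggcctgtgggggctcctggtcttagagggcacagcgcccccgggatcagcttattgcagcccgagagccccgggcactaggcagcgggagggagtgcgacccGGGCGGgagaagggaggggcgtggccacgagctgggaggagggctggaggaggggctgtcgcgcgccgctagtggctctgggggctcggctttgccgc
Cd44 (chr2:102901666-102901915, - strand): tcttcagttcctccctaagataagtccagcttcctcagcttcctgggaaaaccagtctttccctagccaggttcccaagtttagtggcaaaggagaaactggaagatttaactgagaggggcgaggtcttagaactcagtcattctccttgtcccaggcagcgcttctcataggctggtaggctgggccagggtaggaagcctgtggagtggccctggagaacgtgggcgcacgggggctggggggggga
The Prom1 window held GGGCGG at 62 and CCAAT at 35 bases before the start, and the Kit window held GGGCGG at 98 bases before it. These letters do not overlap one another, and no match was found in the Cd44 window. The windows held 9, 17 and 5 CpG dinucleotides for Prom1, Kit and Cd44, where the median window held 6. A match describes the letters and does not show a site in use, and the expression table was made on another build, mm9.

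Other genes of proximal luminal cells were split as well. Of 9 tested genes on a list of 10, 5 rose, 3 fell and 1 was not called. Over set means 3 rose and 2 fell. Counts for this list and the lists below stand against 28.0% higher and 25.1% lower among all tested genes. Over set means these shares were 7.58% and 6.96%. Clu, the chaperone clusterin, rose by 2.07 (limma adjusted p = 4.13e-10). Krt7, a simple-epithelial keratin, fell by 1.98 (limma adjusted p = 8.11e-06). Krt4, a keratin of proximal luminal cells, differed by -0.11 (limma adjusted p = 0.515), with both genotypes between 7.10 and 7.89. Aqp3, an aquaporin, lay at the floor in both genotypes, at 3.37 ± 0.375 (SD, n = 6) and 3.35 ± 0.569 (SD, n = 6). The median difference of the tested genes was 0.45.

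Among 18 other genes used to sort or trace prostate stem and progenitor cells, 4 rose and 8 fell, with 6 not called. Of all tested genes 28.0% rose and 25.1% fell. Over set means 1 rose and 4 fell. Prom2, named above as the paralog of Prom1, is on this list and is counted among the falls in both. Lgr5, a receptor for R-spondins, fell by 1.38 (limma adjusted p = 1.00e-06), from 8.19 to 8.45 in wild-type to 6.47 to 7.41 in null libraries. Sox2, a pluripotency and basal stem cell factor, rose by 1.13 (limma adjusted p = 1.95e-06), from 6.17 to 6.58 in wild-type to 7.31 to 7.96 in null libraries. Both separated the genotypes and passed over set means (limma adjusted p = 0.00506 and 0.0150). The median difference of this list was -0.078.

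Relatives of Ly6a, Ly6d and Psca mostly lay near the floor or were not called. The table held 28 other Ly6/uPAR family genes and 14 of these were tested: 3 rose, 2 fell and the other 9 did not pass. Plaur, the urokinase receptor, rose by 1.69 (limma adjusted p = 3.87e-06) and was the 1 member to pass over set means (limma adjusted p = 0.00527). Lypd3, a member found in stratified epithelia, rose by 0.49 (limma adjusted p = 0.000490), and Ly6c2, a surface protein of monocytes and T cells, fell by 1.15 (limma adjusted p = 0.00431) to 3.95 ± 0.381 (SD, n = 6), near the floor.

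**Figure D3:**
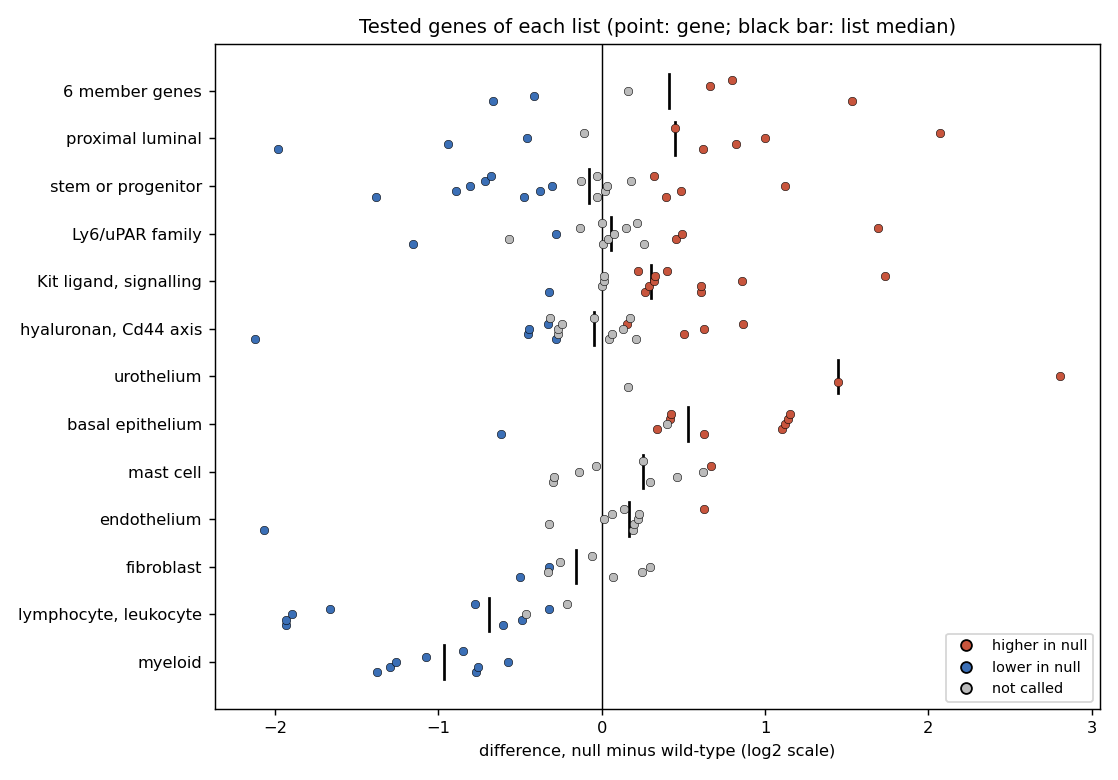
Difference of each tested gene, null minus wild-type (log2 scale, horizontal axis), by gene list (rows), with red for genes called higher, blue for lower and grey for not called, and black bars for list medians. The 6 member genes lie on both sides of 0, as do the proximal luminal and stem or progenitor lists, while all 8 myeloid genes lie below it.

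The ligand of Kit changed more than Kit itself. Kitl stood at 8.99, 9.22, 9.20, 9.05, 8.95 and 8.86 in wild-type libraries 1 to 6 and at 11.31, 10.38, 11.07, 10.30, 10.86 and 10.75 in null libraries 1 to 6, without overlap. Kitl rose by 1.73 (SE 0.153; limma adjusted p = 8.93e-07, and 0.00188 over set means), and unlike Kit it was raised in both null library sets. Of 14 genes of the ligand and signalling list, 10 rose and 1 fell, with 3 not called, where 28.0% of all tested genes rose. Over set means 3 rose. Pik3r1, a regulatory subunit of PI3 kinase, rose by 0.86 (limma adjusted p = 2.86e-06), and Sos1, the exchange factor that activates Ras, rose by 0.61 (limma adjusted p = 1.32e-06). These signalling genes serve many receptors.

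Mast cells carry Kit, and most of their other markers did not pass between genotypes. Of 9 tested mast cell genes on a list of 13, 1 rose and 8 were not called. Their median difference was 0.25, and 1 tested gene was higher in each null library than in any wild-type library. The 2 genes named here are those of highest mean. Tpsb2, a mast cell tryptase, differed by -0.03 (limma adjusted p = 0.891) and Slc18a2, a monoamine transporter of mast cell granules, by 0.62 (limma adjusted p = 0.0564). The summed level of the 13 genes on the linear scale, taken to log2, was 9.11 to 9.28 in wild-type libraries. In null libraries 1, 2 and 5 it was 9.88, 9.16 and 9.57, and in null libraries 3, 4 and 6 it was 9.54, 8.93 and 9.15. The part of mast cells in the Kit values was not tested. Smooth muscle markers moved with the Kit sets: their sum was 16.34 to 16.61 in null libraries 1, 2 and 5 and 15.82 to 16.10 in null libraries 3, 4 and 6, with wild-type libraries at 16.14 to 16.33. The sum of seminal vesicle secretory genes was 18.17 to 20.26 and 16.71 to 17.88 in the same sets, against 6.39 to 11.61 in wild-type libraries. Several other lists divided the null sets too. The endothelial sum was 11.07 to 11.44 in null libraries 1, 2 and 5 and 10.84 to 10.93 in null libraries 3, 4 and 6. In the same order, the basal sum was lower in the first set (12.49 to 12.65 against 13.01 to 13.04). So was the luminal sum (14.80 to 14.87 against 14.97 to 15.09). The part of these tissues and cells in the Kit values was not tested. Of 6 melanocyte genes, another Kit-bearing lineage, Dct, Tyr, Tyrp1, Mlana and Slc45a2 lay at the floor, and Pmel differed by -0.13 (limma adjusted p = 0.433).

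**Figure D4:**
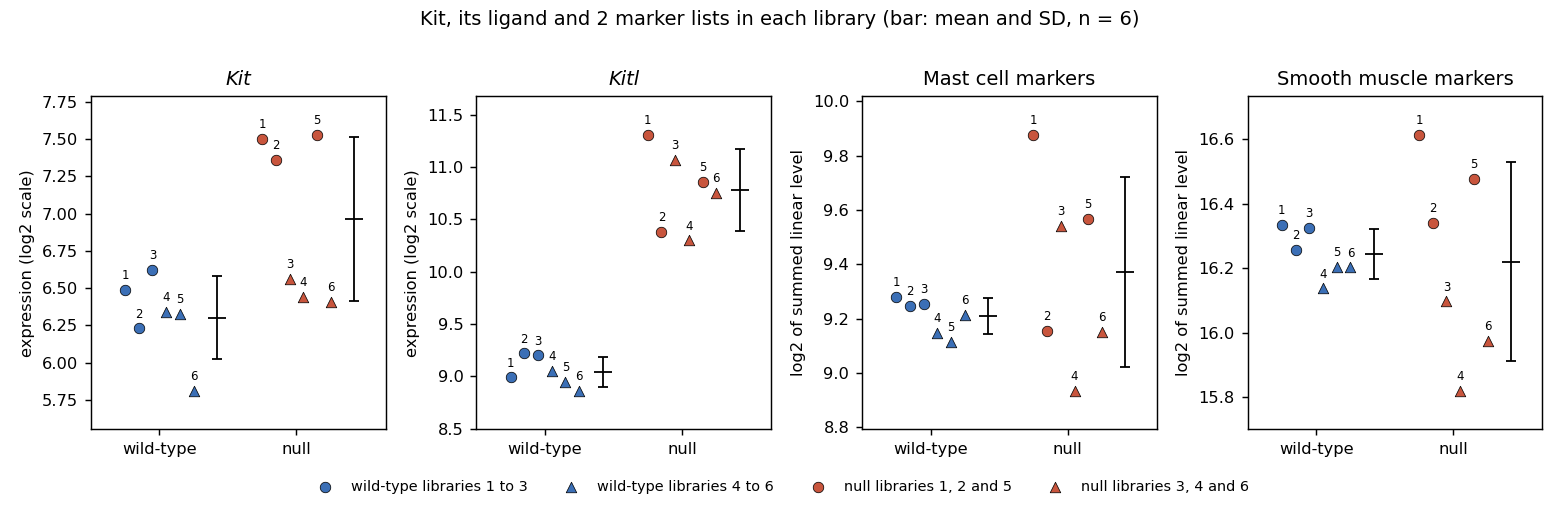
Kit and Kitl (log2 scale) and the summed linear levels of mast cell and smooth muscle markers (log2 of the sum) in each library, with circles and triangles for the library sets and bars for mean and SD (n = 6). Kitl is raised in all 6 null libraries, from 10.30 to 11.31, Kit is raised in libraries 1, 2 and 5, and smooth muscle markers divide the null libraries in the same way. Several lists not drawn also divide these sets, in either direction.

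The hyaluronan and Cd44 list moved both ways. Of 19 tested genes 4 rose and 5 fell, with 10 not called. Over set means 1 rose and 1 fell. Spp1, osteopontin, a secreted ligand of Cd44, fell by 2.12 (limma adjusted p = 2.09e-06) to 3.36 ± 0.241 (SD, n = 6), at the floor, which limits the size of its fall. Hyal1, a hyaluronidase, rose by 0.86 (limma adjusted p = 3.55e-06). Hmmr, a hyaluronan-binding protein of the mitotic spindle, rose by 0.63 (limma adjusted p = 0.00243, and 0.143 over set means). The median difference of the list was -0.045.

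Leukocytes, which carry Cd44, were lower by their markers. All 8 myeloid genes fell and, of 10 lymphocyte and pan-leukocyte genes, 8 fell and 2 were not called, with 1 and 2 lower over set means. The share lower among all tested genes was 25.1%, and 6.96% over set means. The summed myeloid level was highest in the wild-type set 1 to 3 (12.68 to 12.71), lower in the set 4 to 6 (11.86 to 11.94) and lowest in null libraries (11.32 to 11.44). In the same wild-type sets Cd44 lay between 8.61 and 8.66 in the first set and between 8.70 and 8.79 in the second. The part of leukocytes in the Cd44 values was not tested. C1qb, a macrophage complement subunit, fell by 1.38 (limma adjusted p = 0.000119), as did C1qa by 1.30 and C1qc by 1.26. The B cell genes Cd79a and Cd79b each fell by 1.93. Ms4a1, also of B cells, fell by 1.90 (limma adjusted p = 5.05e-07). Over set means C1qc, Cd79a and Ms4a1 passed (limma adjusted p = 0.0469, 0.0465 and 0.0112). C1qb, C1qa and Cd79b did not (limma adjusted p = 0.0554, 0.0725 and 0.0644).

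Most markers of endothelium and stroma, which carry Ly6a, did not pass either. Of 10 endothelial genes 1 rose and 1 fell, of 8 fibroblast genes 2 fell and of 7 smooth muscle genes 1 rose, with the others not called. Flt1, a VEGF receptor, rose by 0.62 (limma adjusted p = 0.000559) and Emcn, endomucin, fell by 2.07 (limma adjusted p = 3.20e-09). Fbln1 fell by 0.50 and Dcn, decorin, by 0.32 (limma adjusted p = 0.0139 and 0.00689). Over set means Emcn alone of these lists passed (limma adjusted p = 0.00406), and Flt1, Fbln1 and Dcn did not (limma adjusted p = 0.0956, 0.189 and 0.216). Of the most abundant smooth muscle genes, Myh11 differed by 0.16 and Tagln by -0.19 (limma adjusted p = 0.149 and 0.229). The endothelial sum divided the wild-type sets in the same order as Ly6a (11.30 to 11.35 against 10.83 to 10.91) and ran from 10.84 to 11.44 in null libraries. The lymphocyte and pan-leukocyte sum (10.27 to 10.30 against 9.34 to 9.36) divided the wild-type sets in the same order. So did the myeloid (12.68 to 12.71 against 11.86 to 11.94) and smooth muscle sums (16.26 to 16.33 against 16.14 to 16.20). The fibroblast sum ran the other way (13.78 to 13.81 against 14.00 to 14.01). The part of these cells in the Ly6a values was not tested.

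Urothelial, basal and luminal genes bear on Psca and Cd44, since the urothelium carries Psca and basal cells carry Cd44. Of 7 urothelial genes 3 were tested: Upk2 rose by 2.81 and Upk1b by 1.44, both uroplakins, and Upk1a was not called, while Krt20 and Grhl3 lay at the floor. Over set means the same 2 calls were made. The uroplakin Upk3a, at 3.21 to 4.80 over all libraries, was not tested. Nor was Upk3b, which stood at 7.57, 7.52 and 7.45 in wild-type libraries 4 to 6. The other wild-type set was near the floor in Upk3b (2.66 to 3.06), and the null range was 2.39 to 5.27. The urothelial sum, mostly Upk1a and Upk1b, was 12.54 to 12.82 in wild-type and 13.22 to 14.45 in null libraries. The part of urothelium in the Psca values was not tested. Of 10 basal genes 8 rose, 1 fell and 1 was not called, and over set means 4 rose. The share higher among all tested genes was 28.0%, and 7.58% over set means. Trp63, which encodes p63 and is needed for basal cells to form, rose by 1.16, Dsc3 by 1.14 and Col17a1 by 1.12 (limma adjusted p = 1.00e-07, 4.29e-06 and 3.49e-07). The part of basal cells in the Cd44 values was not tested. Of 8 luminal and general epithelial genes 3 rose, 3 fell and 2 were not called, among them Dpp4, a surface peptidase, by 0.66 and Krt8, a luminal keratin, by -0.44. Over set means 1 luminal gene rose, and neither Dpp4 nor Krt8 passed (limma adjusted p = 0.0567 and 0.102).

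Several secretory genes of prostate lobes and of the seminal vesicle gave larger differences than any of the 6 genes, though Tgm4 differed by only -0.39. Of 6 prostate genes 5 fell and 1 rose, with Sbp lower by 15.04, Msmb by 5.62 and Spink3 by 4.00. All 6 tested seminal vesicle genes rose, with Svs4 by 11.71, Svs3a by 10.28 and Svs5 by 9.28. Sbp in null libraries (3.13 to 5.06) and Svs3a in wild-type libraries (3.04 to 3.66) reached the floor, which limits the size of these differences. The lowest wild-type values of Svs4 and Svs5, 3.75 and 4.00, were near it. Over set means 4 prostate genes fell and 4 seminal vesicle genes rose, without Svs5 (limma adjusted p = 0.122). The lobes and adjoining tissue in each library are not given in the labels, and their part in the values of Psca, Prom1, Cd44, Kit, Ly6d and Ly6a was not tested.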

How the data were processed

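Prostate RNA of 4-month-old mice went through poly-A capture, a TruSeq kit and an Illumina HiSeq, per the labels' protocols. DESeq, Cufflinks 2.0.2, TopHat2 2.0.4, CASAVA 1.8.2 and the build mm9 stand in the submitters' processing notes, without roles. The authors deposited 1 table of 12 libraries on a log2 scale, from 1.07 to 21.61, in the form of variance-stabilised values; no source used here states the transformation, and the depth is unknown.

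Deposited values were tested as they stand with limma 3.58.1 (R 4.3.3, mean-variance trend, robust moderation) across 15096 genes at 4 or more in at least 6 libraries, with Benjamini-Hochberg adjustment and a threshold of 0.05. In simulated data with 200 genes changed, the fit recovered 63% of differences of 0.5 and 94% of differences of 1. The simulated libraries varied independently, so spread shared within library sets was not covered. The changed genes were also a far smaller share than the 53.1% called in the data, so this recovery does not carry over to them. Library sets were taken from earlier work on these data. The 6 genes, the 17 other lists (192 genes, 160 tested), the filter and the alternatives were chosen with earlier results of these data known.

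Named are the 6 genes, the 3 genes most like each in deviations from genotype means, Kitl, Krt4, Prom2 and, per list, up to 3 called genes of largest difference (with under 2 called, the 2 of highest mean). Aqp3 and the genes named at the floor were added after their values were seen. The targeted gene and some genes that this rule names are not reported here. Promoter windows came from RefSeq; Ly6a, Ly6d and Psca had none in the table used. Alternatives were other scalings, tests, filters and libraries left out.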

Additional observations from a re-analysis of the deposited data

Results flagged for a closer look

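Of 140 groups of 6 libraries (70 named genes in each genotype), 7 held a library whose gap to its nearest neighbour was a larger share of the group's range than Dixon's 95% critical value for 6 values. Chance alone marks about 1 in 20 such groups, and none of the 7 was in Psca, Prom1, Cd44, Kit, Ly6a or Ly6d. Null library 1 lay apart in 5 of them. It was lowest in Svs4 (12.38, others 16.08 to 18.20), Svs3a (10.04, others 13.42 to 15.00) and Spink3 (11.23, others 13.80 to 15.05). It was highest in Sos1 (10.31, others 10.16 to 10.20) and Ms4a1 (4.90, others 4.01 to 4.28). Null library 3 was highest in Sox2 (7.96, others 7.31 to 7.55) and in Dsc3 (5.64, others 5.25 to 5.38).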

How the results depend on the processing

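Psca passed as higher under all alternatives run (1.40 to 1.68 with each library left out), while the 2 lower calls were less stable. Of the 6 genes, 2 were lower at first and 1 remained with quantile normalization, without a filter, over set means, or without wild-type libraries 1 to 3 or 4 to 6, null libraries 1, 2 and 5, null libraries 5 and 6, or null libraries 1 and 2 (this last chosen after seeing the data). None (0) were lower with the exact rank-sum test, a random block per set, or a test against a 1.5-fold change, which left 1 higher; in the exact permutation test both had an unadjusted p under 0.05 (Cd44 0.0130, Ly6d 0.0368). Ly6d missed the threshold at an unchanged -0.41 in the rank-sum, 1.5-fold, set-mean, random-block and unfiltered fits, and at -0.32 with quantile normalization. Leaving out the libraries named above, in the same order, gave -0.30, -0.52, -0.33, -0.44 and -0.38 for Ly6d. Cd44 (-0.67) and Kit (0.67) missed it in the rank-sum, 1.5-fold and random-block fits, Kit also over set means, and Prom1 (0.80) in the 1.5-fold test. Kit was 0.52 without wild-type libraries 4 to 6, 0.17 without null libraries 1, 2 and 5, 1.16 without null libraries 3, 4 and 6, and 0.43 without null libraries 1 and 2. Ly6a reversed to -0.048 without wild-type libraries 4 to 6. With each library left out, 2 to 3 of the 6 genes were higher and 1 to 2 lower, Ly6d ran from -0.50 to -0.33 and Kit from 0.55 to 0.78. Of 160 other listed genes, 49 were higher and 47 lower, against 16 and 16 in the 1.5-fold test and 20 and 15 over set means. The cause of these changes was not tested. Where libraries were left out or averaged, the number of samples was smaller as well. Over all genes 4224 were higher and 3789 lower, and 3367 and 4869 with upper-quartile scaling, which moved the median of all genes to -0.059. No paired analysis was possible because the labels give no replicate numbers shared by the genotypes. The depth is unknown, so no limit from counts can be given.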
